A study of Mus musculus with 4 samples.

Results

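Blood from aging mice was examined for the dual-specificity MAP kinase phosphatases, the enzymes that switch MAP kinases off. The group comprises 8 genes (Dusp1, Dusp2, Dusp4, Dusp5, Dusp6, Dusp7, Dusp10 and Dusp16), taken by gene symbol from the expression table. All 8 had values in every library, out of 17823 genes with values among 23136 listed. The table holds 4 messenger RNA libraries. C57BL/6 mice, 12 months old by the methods and called adult in the sample labels, received naringenin (Nar), a flavonoid, at 20 mg/kg through the tail vein, or phosphate-buffered saline (PBS) as the control, for 30 days. The libraries are Nar 1 and Nar 3 from the treated mice, and Ctrl 1 and Ctrl 3 from the mice given PBS, and values of a group are given with replicate 1 first. The labels do not say that each library came from a separate animal, so p-values measure the spread between these libraries, which may be technical. The limma p-values also draw on the spread of other genes, not only on that of the gene itself.

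MAP kinases (ERK, JNK and p38) are active when a threonine and a tyrosine in their activation loop are both phosphorylated. Dual-specificity phosphatases remove both phosphates. Several of their genes are themselves induced by MAP kinase signaling, which makes them feedback inhibitors. The nuclear members Dusp1, Dusp2, Dusp4 and Dusp5 are known as inducible genes, Dusp6 and Dusp7 act on ERK in the cytoplasm, and Dusp10 and Dusp16 prefer JNK and p38. In leukocytes, Dusp1 is known for limiting p38 and JNK activity and the output of inflammatory cytokines.

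Values are FPKM, fragments per kilobase of transcript scaled to the mapped fragments of a library. How many reads they rest on is unknown, and counting error is therefore not stated. Haemoglobin genes held 92.6% to 95.1% of the summed FPKM in controls and 95.7% to 96.4% with Nar, and the remaining genes share what is left. Fold changes are Nar minus Ctrl on log2(FPKM + 0.1), where the added 0.1 makes changes of low genes look smaller. The median log2 fold change of the 5339 tested genes was -1.07, and it became -0.0016 after median-of-ratios scaling, a rescaling that places the typical gene at 1 level in all libraries. Member values are therefore given on both scales. A gene is called when limma's Benjamini-Hochberg adjusted p was under 0.05 and the fold change exceeded 2.

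The promoters of Dusp1 and Dusp5 are shown because these genes had the largest log2 fold change of the group and the next largest. Each stretch runs from 250 to 51 bases before the RefSeq start (GRCm38.p6), the build of all gene positions given here. Capitals mark TGACG on either strand, the core of the cAMP response element bound by CREB and ATF proteins, and the CArG box, which is bound by serum response factor. The stretches lie at chr17:26508523-26508722 on the minus strand for Dusp1 and at chr19:53528895-53529094 on the plus strand for Dusp5.
Dusp1: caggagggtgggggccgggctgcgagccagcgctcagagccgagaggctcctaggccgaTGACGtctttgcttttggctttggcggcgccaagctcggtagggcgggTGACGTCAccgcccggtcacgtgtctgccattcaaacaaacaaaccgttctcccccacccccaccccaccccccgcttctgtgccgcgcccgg
Dusp5: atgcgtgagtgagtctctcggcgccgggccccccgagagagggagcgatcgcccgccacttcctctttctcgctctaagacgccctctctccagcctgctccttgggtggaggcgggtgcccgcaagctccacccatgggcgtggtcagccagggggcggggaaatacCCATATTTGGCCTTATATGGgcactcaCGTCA

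RefSeq promoter windows of 300 bases, with 250 before the start and 50 after it, were found for 7 of the 8 members, all but Dusp4. The full palindrome TGACGTCA was in the window of Dusp1 alone, starting 143 bases before the start, and in 1.79% of all 32851 windows. TGACG on either strand was found in 4 of the 7 windows (Dusp1, Dusp2, Dusp5 and Dusp16) and in 20.8% of all windows. The palindrome contains it on both strands. The CArG box was in the window of Dusp5 alone, as a pair starting 82 and 72 bases before the start, and in 1.63% of all windows. GGGCGG on either strand was in 6 of 7 windows, all but that of Dusp6, and in 35.7% of all, and CCAAT on either strand in 4 of 7 (Dusp6, Dusp7, Dusp10 and Dusp16) and 37.4%. For Dusp7 and Dusp16 the windows are set on other RefSeq starts, 72 and 14435 bases downstream of the gene starts given here, so the Dusp7 window covers only part of the 250 bases before its gene start and the Dusp16 window none of them. These matches are letters in a window and no measure of binding.

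**Figure D1:**
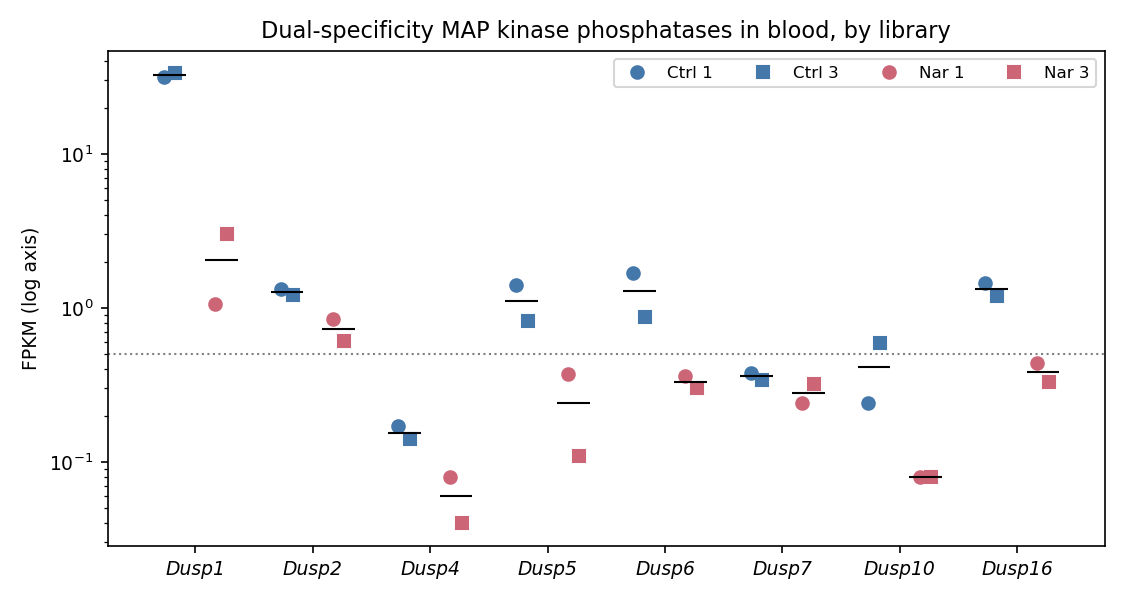
FPKM of each member in the 4 libraries, on a log axis; circles are replicate 1, squares replicate 3, blue controls, red Nar, black bars group means and the dotted line the mean FPKM of 0.5 needed for testing. Dusp1 stands at 31.6 and 33.4 FPKM in controls, far above the other 7 members, and at 1.06 and 3.03 FPKM with Nar.

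Dusp1 (NCBI Gene 19252, chr17:26505591-26508472, minus strand), the best known stress-induced and glucocorticoid-induced member, was the most abundant and had the largest fold change. Its FPKM was 31.6 and 33.4 in the controls and 1.06 and 3.03 with Nar. Both Nar libraries lay far below both controls, and the lowest control value was 10.4 times the highest Nar value. The controls differed from each other by 1.06-fold and the Nar libraries by 2.86-fold. The means were 32.5 ± 1.24 FPKM (SD, n = 2) in controls and 2.05 ± 1.39 FPKM (SD, n = 2) with Nar. The log2 fold change was -4.10 (standard error 0.57, limma adjusted p = 0.00439), and 14 of the 5339 tested genes had a lower one. After median-of-ratios scaling it was -2.95 (limma adjusted p = 0.0577), so that Dusp1 stayed lower in both Nar libraries but was no longer called. By rank, which no scaling changes, Dusp1 stood at 304 and 422 in the controls and at 2366 in Nar 1 and 1000 in Nar 3, counted from the highest FPKM among all genes with values.

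Leaving out a library changed the call of Dusp1. With limma it was lost without Ctrl 1 (adjusted p = 0.0826), without Ctrl 3 (adjusted p = 0.0871) and without Nar 1 (adjusted p = 0.0506), and kept without Nar 3 (adjusted p = 0.0198). Its log2 fold change in those fits ran from -4.81 to -3.38.

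The other inducible nuclear members were much lower in level. Dusp5 (NCBI Gene 240672, chr19:53529145-53541809, plus strand), which is specific for ERK, had an FPKM of 1.4 and 0.82 in the controls and 0.37 and 0.11 with Nar. The groups did not overlap, although each group spread by 1.71-fold or more. The log2 fold change of Dusp5 was -1.90 (standard error 0.51, limma adjusted p = 0.0248), and 8.28% of the tested genes had a lower one. After median-of-ratios scaling it was -0.99 (limma adjusted p = 0.474) and not called. An exon of Dusp5 overlaps the antisense gene AC137853.2, and the sources used here do not say whether reads were assigned by strand.

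Dusp2 (NCBI Gene 13537, chr2:127336159-127338377, plus strand), a phosphatase found mainly in haematopoietic cells, had an FPKM of 1.33 and 1.22 in the controls and 0.85 and 0.61 with Nar. Both Nar values were below both controls, but the distance was small. Its log2 fold change was -0.74 (standard error 0.35, limma adjusted p = 0.102), which did not pass, and 74.6% of the tested genes had a lower one. After median-of-ratios scaling the sign turned, to 0.32 (limma adjusted p = 0.825). The rank of Dusp2 among all genes was 3424 and 3646 in controls and 2744 and 3081 with Nar, so it stood higher in the order of both Nar libraries.

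Dusp4 (NCBI Gene 319520, chr8:34807610-34819894, plus strand) was the lowest member, with an FPKM of 0.17 and 0.14 in the controls and 0.08 and 0.04 with Nar. The groups did not overlap, but rounding to 2 decimals leaves these values 1 or 2 significant digits. Its mean was under the minimum for testing, and its log2 fold change of -0.68 became -0.13 after median-of-ratios scaling, where the groups overlapped.

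Dusp6 and Dusp7, the cytoplasmic phosphatases of ERK, differed in their values. Dusp6 (NCBI Gene 67603, chr10:99263231-99267489, plus strand) had an FPKM of 1.69 and 0.87 in the controls and 0.36 and 0.3 with Nar. The Nar libraries lay close together, below controls that differed by 1.94-fold. The log2 fold change was -1.62 (standard error 0.42, limma adjusted p = 0.0232), and after median-of-ratios scaling it was -0.62 (limma adjusted p = 0.656) and not called. Dusp7 (NCBI Gene 235584, chr9:106368560-106375724, plus strand) had an FPKM of 0.38 and 0.34 in the controls and 0.24 and 0.32 with Nar. The groups all but met, since the lowest control value was 1.06 times the highest Nar value. Dusp7 was under the minimum for testing, and its log2 fold change was -0.28, with 89.5% of the tested genes lower. It turned to 0.61 after median-of-ratios scaling, with both Nar libraries above both controls. Its rank moved from 7359 and 7178 in controls to 6081 and 4776 with Nar.

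Of the phosphatases of JNK and p38, Dusp16 (NCBI Gene 70686, chr6:134715468-134807063, minus strand) had an FPKM of 1.46 and 1.19 in the controls and 0.44 and 0.33 with Nar. Both groups were tight and did not overlap. The log2 fold change of Dusp16 was -1.56 (standard error 0.36, limma adjusted p = 0.0187), and after median-of-ratios scaling it was -0.54 (limma adjusted p = 0.640) and not called. Dusp10 (NCBI Gene 63953, chr1:184034381-184075636, plus strand) had an FPKM of 0.24 and 0.59 in the controls and 0.08 and 0.08 with Nar. The controls differed by 2.46-fold while the Nar values were equal at the precision deposited. Dusp10 was not tested, and its log2 fold change of -1.43 became -0.69 after median-of-ratios scaling.

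In the order of levels in controls, Dusp1 was followed by Dusp16 at 1.33 ± 0.19, Dusp6 at 1.28 ± 0.58, Dusp2 at 1.28 ± 0.08 and Dusp5 at 1.11 ± 0.41 FPKM (SD, n = 2), and none of these 4 neighbours differed beyond their spread. Dusp10 and Dusp7, at 0.415 ± 0.247 and 0.36 ± 0.028 FPKM (SD, n = 2), also could not be separated. With Nar the order was Dusp1, Dusp2 at 0.73 ± 0.17, Dusp16 at 0.385 ± 0.078, Dusp6 at 0.33 ± 0.042, Dusp7 at 0.28 ± 0.057 and Dusp5 at 0.24 ± 0.18 FPKM (SD, n = 2), followed by Dusp10 and Dusp4. There Dusp1 and Dusp2 were within the spread of Dusp1, and in Nar 1 they were listed at 1.06 and 0.85 FPKM.

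As a group, 4 of the 5 tested members were called lower (Dusp1, Dusp5, Dusp6 and Dusp16), where 39.3% of all tested genes were called lower. Dusp5, Dusp6 and Dusp16 were under 0.5 FPKM in both Nar libraries and reached the mean of 0.5 FPKM only through the controls, so that the count is not read as a result about the group. Both Nar values lay below both control values for all 8 members, against 78.3% of the tested genes and 52.7% of the 16382 genes above 0 in any library. An exact permutation test of 2 libraries against 2 cannot give a two-sided p under 0.333. The calls of Dusp5, Dusp6 and Dusp16 were each lost when any 1 of the 4 libraries was left out. The median log2 fold change of the 8 members, 3 of them not tested, was -1.49, beside -1.07 for all tested genes and -0.57 for the 16382 genes above 0 in any library. Against the median of tested genes, 5 members lay below and 3 above. After median-of-ratios scaling, limma called 0 of the 5 tested members, where 0.599% of all tested genes were called lower. An unadjusted limma p under 0.05 was found for 1 of the 5, beside 797 of the 5339 tested genes. On that scale 5 members lay lower in both Nar libraries, 2 (Dusp2 and Dusp7) lay higher in both and Dusp4 overlapped, against 15.8% of the genes above 0 in any library that lay lower in both and 18.9% that lay higher in both. The median of the members was then -0.58, beside 0.03 for the 16382 genes.

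**Figure D2:**
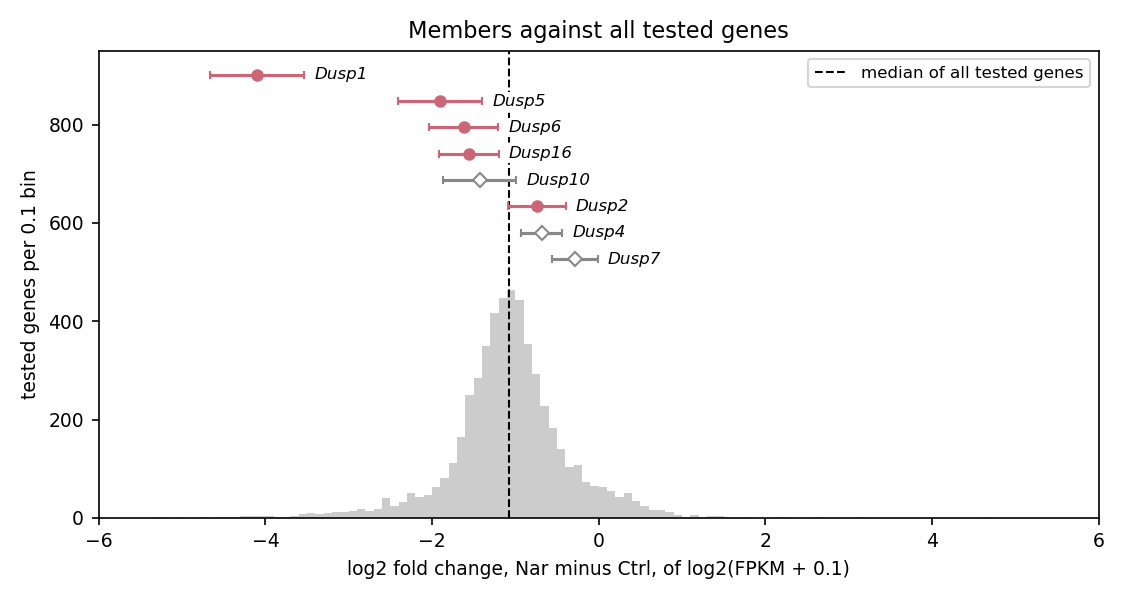
Histogram of the log2 fold change (Nar minus Ctrl) of all 5339 tested genes, with the members above it; red circles are tested members and open diamonds the 3 untested ones, whose bars come from the fit without a minimum FPKM, and all bars are limma standard errors. Dusp1 at -4.10 lies in the lower tail, while Dusp2, Dusp4 and Dusp7 lie to the right of the dashed median at -1.07.

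The make-up of the group within a library does not depend on scaling between libraries. Dusp1 supplied 82.6% and 86.6% of the members' summed FPKM in the controls, against 30.5% in the Nar 1 library and 62.9% in the Nar 3 library. Both Nar shares were below both control shares, and the mean share with Nar minus that of controls was -37.9 percentage points (exact permutation test, two-sided p = 0.333, the smallest possible). Without Nar 1 the difference was -21.7 percentage points. The summed FPKM of all 8 members was 38.3 and 38.6 in the controls and 3.48 and 4.82 with Nar. The summed FPKM of the 7 other members was 6.67 and 5.17 in the controls and 2.42 and 1.79 with Nar. Among those 7, Dusp2 made up 19.9% and 23.6% in the controls and 35.1% and 34.1% with Nar, and the share of Dusp7 was 5.70% and 6.58% in controls and 9.92% and 17.9% with Nar. The share of Dusp16 among the 7 was 21.9% and 23.0% in controls and 18.2% and 18.4% with Nar.

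**Figure D3:**
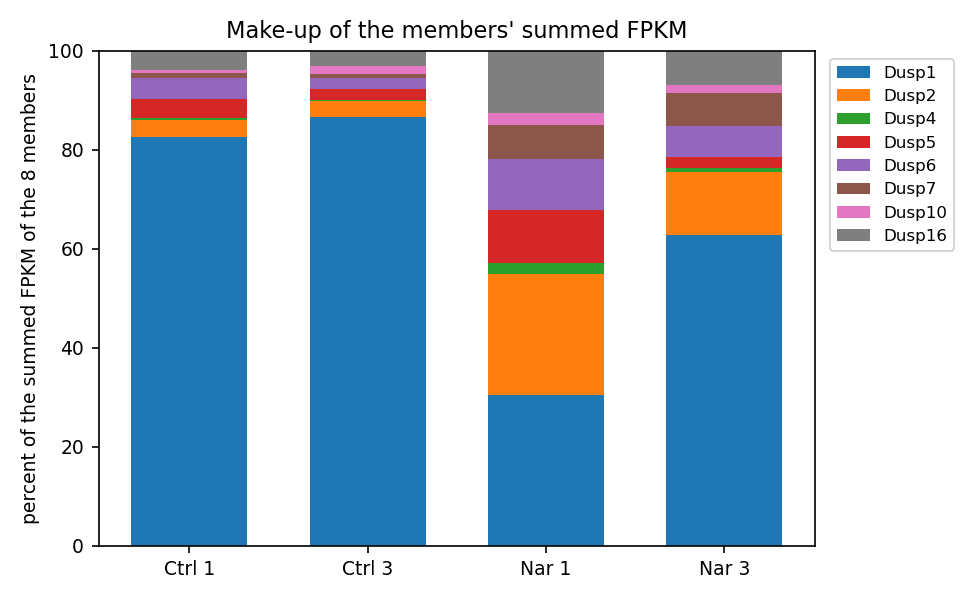
Percent of the 8 members' summed FPKM supplied by each member, one stacked bar per library. The Dusp1 segment takes 82.6% and 86.6% in the controls and 30.5% and 62.9% with Nar, and the Dusp2 segment grows from 3.47% and 3.16% to 24.4% and 12.7%.

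The members' summed FPKM per summed FPKM of 13 MAP kinase genes was 1.09 and 0.647 in the controls and 0.159 and 0.313 with Nar. Both Nar ratios lay below both controls (exact permutation test, two-sided p = 0.333). Without Dusp1 the ratio was 0.190 and 0.0867 in the controls and 0.111 and 0.116 with Nar, and the groups overlapped.

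Other genes of the pathway were listed by function, with earlier results of these data known. Of 72 genes, 71 had values and 38 were tested, of which 18 were called lower and 0 higher, with a median log2 fold change of -1.10, beside 39.3% called lower and a median of -1.07 over all tested genes. Of the 38, 11 were under 0.5 FPKM in both Nar libraries and passed the minimum only through the controls, among them 8 of the 18 called. After median-of-ratios scaling 1 was called lower, Fos, a gene named here after its values were seen, with a log2 fold change of -2.94 (limma adjusted p = 0.0179). From each list, the genes named next are the pair of highest mean FPKM.

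Dusp8, a further phosphatase of JNK and p38, was listed at 0.43 and 0.53 FPKM in the controls and 0.53 and 0.89 with Nar, a log2 fold change of 0.45 (limma adjusted p = 0.345). Dusp9 was listed at 0 in every library. Of 4 tested atypical dual-specificity phosphatases, small enzymes that lack the MAP kinase binding domain, 1 was called lower, beside 39.3% of all tested genes. The 1 called was under 0.5 FPKM in both Nar libraries and was tested only through the controls. The abundant Dusp23 and Dusp3 did not pass, with log2 fold changes of -0.91 and -0.65. Of 5 tested tyrosine and serine/threonine phosphatases that also act on MAP kinases, 1 was called lower, while Ppp2ca, a catalytic subunit of protein phosphatase 2A, and Ppm1b had log2 fold changes of -0.99 and -0.43 and did not pass.

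Among MAP kinases, 3 of 5 tested genes were called lower, beside 39.3% of all tested genes, with a median log2 fold change of -1.58. Of the 3, Mapk13, named here after its values were seen, was at 0.12 and 0.25 FPKM with Nar and was tested only through the controls. Mapk3, which encodes ERK1, fell from 17.8 ± 8.51 to 5.56 ± 0.955 FPKM (SD, n = 2; limma adjusted p = 0.0433), while Mapk6 had a log2 fold change of -0.97 (limma adjusted p = 0.206). After median-of-ratios scaling Mapk3 had a log2 fold change of -0.42 (limma adjusted p = 0.837). Of 5 tested MAP kinase kinases, which phosphorylate MAP kinases, 1 was called lower, and Map2k3 and Map2k2 had log2 fold changes of -0.62 and -0.11 and did not pass. None of the 7 Sprouty and Spred genes, feedback inhibitors of the ERK pathway, reached the minimum for testing. Spry2 was at 0.43 and 0.34 FPKM in controls and at 0.04 in both Nar libraries, and Spry1 at 0.28 and 0.53 FPKM in controls and 0.16 and 0.14 with Nar.

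The immediate early and stress-induced genes, which MAP kinases help to switch on, had a median log2 fold change of -2.45, and 10 of 14 tested genes were called lower, beside 39.3% of all tested genes. Of these 10, 4 were under 0.5 FPKM in both Nar libraries and were tested only through the controls, so the count and the median are not read as a result about the list. Zfp36, whose product destabilizes cytokine messenger RNA, fell from 26.9 ± 12.2 to 2.90 ± 0.049 FPKM (SD, n = 2; limma adjusted p = 0.00658), and Junb, an AP-1 subunit, from 24.6 ± 5.76 to 2.70 ± 0.771 FPKM (SD, n = 2; limma adjusted p = 0.00553). After median-of-ratios scaling neither passed, with limma adjusted p-values of 0.0969 and 0.0864. Of 4 tested glucocorticoid-induced genes 2 were called lower, and both were under 0.5 FPKM in both Nar libraries and so were tested only through the controls. Per1 fell from 1.96 ± 0.35 to 0.355 ± 0.191 FPKM (SD, n = 2; limma adjusted p = 0.00873), but after median-of-ratios scaling its log2 fold change was -1.21 (limma adjusted p = 0.218). Tsc22d3 had a log2 fold change of -0.67 (limma adjusted p = 0.242), which became 0.49 after median-of-ratios scaling. The list medians were -0.90 for the atypical phosphatases, -0.88 for the other phosphatases and -0.74 for the MAP kinase kinases, and median-of-ratios scaling turned them to 0.18, 0.25 and 0.34. The medians of the MAP kinases, the immediate early genes and the glucocorticoid-induced genes (-1.47 before) were -0.42, -1.49 and -0.47 on that scale. Each of these 6 lists holds genes that were tested only through the controls, and no list is set against another.

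**Figure D4:**
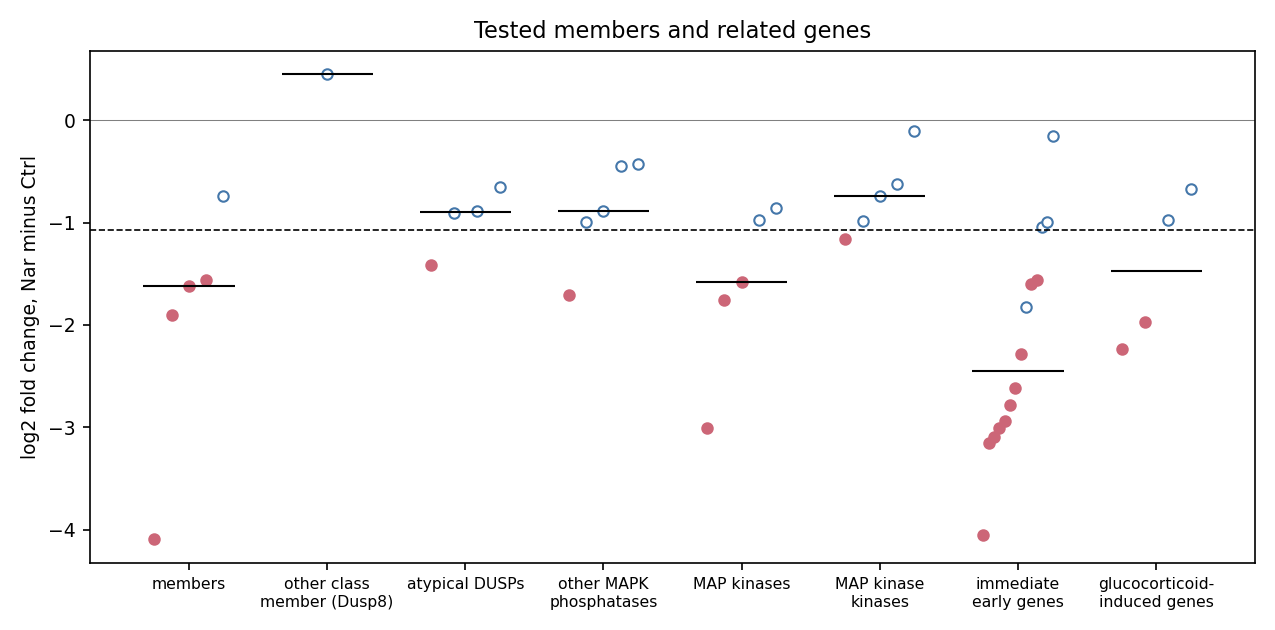
Log2 fold change (Nar minus Ctrl) of the tested members and of tested genes in 7 related lists; filled red points were called, open blue points were not, short bars are list medians and the dashed line is the median of all tested genes. The immediate early genes have a median of -2.45, with 4 of the 14 tested only through the controls, and Dusp1 at -4.10 and Fos at -4.05 are the lowest points.

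Marker genes of white cells differed in how their values stood between the groups. All 12 neutrophil markers were called lower, where 39.3% of all tested genes were called lower. Their median log2 fold change was -3.67, or -2.50 after median-of-ratios scaling. Their summed FPKM was 1442 to 1746 in controls and 106 to 165 with Nar. Dusp1 amounted to 1.81% and 2.32% of that sum in the controls and 1.00% and 1.84% with Nar, so the groups overlapped on this measure, by the small margin between Ctrl 1 and Nar 3. Leaving out each of the 12 markers in turn, the groups overlapped in 10 cases and the Nar shares lay below the controls in 2. Of 8 monocyte markers 5 were called lower, with sums of 74.6 to 91.2 FPKM in controls and 10.3 to 28.8 with Nar. Dusp1 amounted to 42.4% and 36.6% of the monocyte sum in controls and 3.68% and 29.3% with Nar, which did not overlap. Leaving out each of the 8 monocyte markers in turn, the Nar shares lay below the controls in 7 cases and overlapped in 1, without F13a1. Dusp1 amounted to 88.7% and 127% of the B cell sum in controls and 3.91% and 10.9% with Nar. Its level relative to the T cell, NK cell, platelet and erythroid sums was likewise lower in both Nar libraries, whichever marker was left out. None of the 6 tested B cell markers and none of the 6 tested T cell markers were called. Their sums were 26.4 to 35.7 and 6.01 to 8.52 FPKM in controls, and 27.1 to 27.8 and 3.86 to 5.53 with Nar. At an unadjusted limma p under 0.05 there were 0 B cell and 1 T cell markers, beside 3036 of the 5339 tested genes.

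Of 5 tested NK cell markers, 1 was called lower and 3 had an unadjusted limma p under 0.05. The NK cell sums were 15.2 to 15.5 FPKM in controls and 3.21 to 7.12 with Nar. Of 7 platelet markers 0 were called, with 1 at an unadjusted limma p under 0.05. The platelet sums were 687 to 2182 FPKM in controls and 449 to 583 with Nar. Of 13 erythroid markers outside haemoglobin and 10 tested haemoglobin genes 0 were called, with 1 and 3 at an unadjusted limma p under 0.05. The erythroid sum overlapped between groups, at 9429 to 11473 FPKM in controls and 10551 to 11679 with Nar. With median-of-ratios scaling, the monocyte markers' median log2 fold change went from -1.76 to -0.64 and that of the NK cell markers from -1.29 to -0.33. Those of the B cell, T cell and platelet markers turned from -0.25, -0.61 and -1.11 to 0.80, 0.42 and 0.07. The erythroid median went from 0.37 to 1.54, and that of the haemoglobin genes turned from -0.07 to 1.10. No marker of white cells or platelets with values was at 0 in any library. In whole blood, fewer cells of a type and less RNA per cell cannot be told apart, and the part of cell numbers in the member values was not tested.

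**Figure D5:**
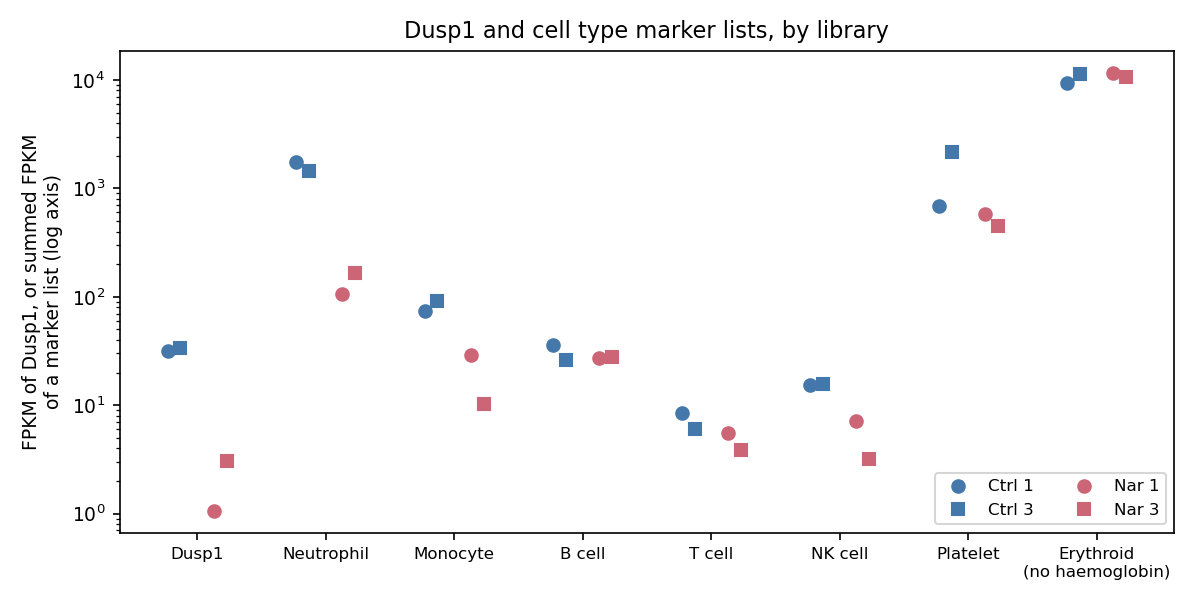
FPKM of Dusp1 and summed FPKM of 7 marker lists in each library, on a log axis; circles are replicate 1, squares replicate 3, blue controls and red Nar. Dusp1 and the neutrophil sum are both far lower with Nar, while the B cell and erythroid sums overlap between groups. The monocyte, T cell, NK cell and platelet sums are also lower in both Nar libraries than in both controls.

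The genes whose values ran closest to those of Dusp1 were found by the root mean square difference of log2(FPKM + 0.1), each gene centred on its own mean over the 4 libraries, among 5334 tested genes outside the group. They were Retnlg at 0.22, Mmp8 at 0.24, Cd33 at 0.29, Cd14 at 0.32 and Asprv1 at 0.36 on the log2 scale. Retnlg had 255 and 235 FPKM in controls and 12.4 and 25.8 with Nar, and Mmp8 had 34.9 and 30.6 FPKM in controls and 1.4 and 2.55 with Nar. Retnlg and Mmp8 are also in the neutrophil marker list.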

How the data were processed

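Polyadenylated RNA from mouse blood was sequenced in 4 libraries, 2 per group, grouped by sample title. The table deposited by the authors gives each gene's FPKM to 2 decimals. The paper's methods name bowtie-2, and the submitters' processing notes name TopHat2, Cufflinks and GRCm38; which made the values, and the annotation, are not given in the sources used here. Blank genes were left out, and 0 columns were without a sample. A search of low values for the worth of 1 read ended at the edge of its range in 3 of the 4 libraries and within it only in Nar 3, with the weakest signal of the 4, so relative depths were not recovered and depth is unknown.

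Members, related lists and marker lists were chosen with earlier results of these data known. Genes whose FPKM averaged 0.5 or more over the libraries were fitted on log2(FPKM + 0.1) with limma 3.58.1 in R 4.3.3 (eBayes with trend, checked on simulated data), with adjustment over all tested genes. The simulated data lacked the shift over most genes seen here, so they do not check the calls under that shift. The study's DEGseq test needs read numbers and was not run. Named genes were the members, the 2 most abundant genes of each related list and the 5 genes nearest the most abundant member. Alternatives changed pseudocount, filter, scaling (TPM, removal of haemoglobin genes, median-of-ratios), trend, replicate block and libraries. Positions and promoters are RefSeq GRCm38.p6, and exon overlaps GENCODE M21. Python 3.11.15 with matplotlib 3.10.9 made the plots. By their titles, same-numbered libraries share only a number, and whether they share anything else is not given in the sources used here.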

Additional observations from a re-analysis of the deposited data

How the results depend on the processing

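The 4 member calls and 18 related calls changed with scaling, pseudocount, filter and single libraries. With median-of-ratios scaling there were 0 member calls and 1 related call, a members' median of -0.58 and 5 members lower in both Nar libraries, and the log2 fold changes of Dusp2 (0.32) and Dusp7 (0.61) reversed. With haemoglobin genes removed there were 1 and 8 calls, a median of -1.08, and Dusp7 reversed to 0.14. A pseudocount of 1 left 1 member call and a median of -0.57. Without the filter there were 0 and 0 calls, and 0 of all 16382 genes were called. In that fit 5 of 8 members had an unadjusted limma p under 0.05, beside 4978 of the 16382 genes. At a mean FPKM of at least 5, only Dusp1 of the members was tested, giving 1 and 3 calls. Leaving out each library gave 0 to 1 member calls, 0 to 8 related calls, medians from -1.57 to -1.30 and differences in the Dusp1 share from -54.1 to -21.7 percentage points; the lone library of a group was assumed to vary like the other group. With the replicate number as a block there were 4 member calls and 18 related calls. The block changed no member call. Deviations of same-numbered libraries correlated at r = -0.153 across 5339 genes, which are not independent replicates, and crossed pairing, added after the data were seen, gave 4 and 20. TPM, a pseudocount of 0.01 and the fit without trend each left 4 member calls. Dusp1 was lower with Nar in all 14 alternatives, with log2 fold changes from -4.81 to -2.95 and limma adjusted p from 7.12e-07 to 0.113. Causes were not tested. Among all tested genes, 2098 were called lower as reported, 668 with a pseudocount of 1, 267 without haemoglobin genes, 32 with median-of-ratios scaling and 0 to 254 with a library left out. Leaving out each marker in turn, for the level of Dusp1 relative to marker sums, was also added after the data were seen. Depth is unknown, so the counting error of low values cannot be given.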
